A study of Mus musculus with 2 samples.

Results

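The cadherins are calcium-dependent adhesion proteins. The genes described here are the cadherins, the protocadherins, the giant Fat and Dachsous cadherins, the catenins and the epithelial adhesion molecule Epcam. They were chosen by gene symbol, with earlier results of these data known. The choice took every probe set of the array that names 1 gene and has a fitting symbol. Such a symbol begins with Cdh and a number, Pcdh, Fat1 to Fat4, Dchs1 or Dchs2, Ctnna1 to Ctnna3, Ctnnb1, Ctnnd1 or Ctnnd2, or is Epcam. This gave 124 probe sets of 68 genes, out of 45101 probe sets and 18193 genes on the array. A further 6 probe sets, each naming many clustered protocadherins of the alpha group, were left out because they name several genes. They were below the background floor described next on both arrays.

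Lung epithelium of ICR mouse fetuses at embryonic day 11 was isolated and embedded in Matrigel, a basement membrane gel, with FGF10, the growth factor of the budding lung. All of it was first grown for 4 days with CHIR99021, an inhibitor of the kinase GSK3, then fragmented, re-embedded and grown for 2 days with FGF10, either without CHIR99021 or with it. Each condition was measured on 1 Affymetrix array, so there is no spread between cultures, no test was possible, and the comparison is between withdrawal and continued presence of the inhibitor. Values are MAS5 signals on a linear scale. A background floor was read from 80 probe sets of olfactory and vomeronasal receptors, genes of sensory neurons: their 95th percentile was 19.2 on the array without CHIR99021 and 12.7 on the array with it. A value over the floor of its array is called measured here. Each gene is represented by its brightest probe set (by mean log2 signal), log2 ratios are with over without CHIR99021, and a gene counted as higher or lower at 2-fold. Across the 11356 genes measured on both arrays the median log2 ratio was -0.40, so a member at that value moved with the array as a whole. After loess scaling, which removes the dependence of the ratio on signal, this median was 0.05.

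In classical cadherins, such as E-cadherin (Cdh1), the outer domains bind the same cadherin on the next cell, and the tail inside the cell binds p120 catenin (Ctnnd1) and beta-catenin (Ctnnb1). Alpha-catenin (Ctnna1) joins that complex to actin, and together these proteins form the adherens junction that holds an epithelium together. Beta-catenin has a second role as the coactivator of canonical Wnt signalling: GSK3 marks its free pool for destruction, which CHIR99021 blocks. Protocadherins and the Fat and Dachsous cadherins share the outer repeats but not the catenin-binding tail of classical cadherins.

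Promoter windows were taken from a RefSeq table (build GRCm38.p6) that held 30 of the 68 genes. Each window covers the 250 bases before the annotated start, on the strand of the gene, 5′ to 3′. The 3 genes Pcdh18, Cdh8 and Pcdh7 are shown because they had ratios above 0 by every probe set of theirs that was measured on 1 or both arrays, and Epcam because its ratio lay near 0. Capitals mark 4 forms of the core bound by TCF and LEF factors, searched on both strands. The first is CTTTGAA, the second is CTTTGAT, the third is CTTTGTA and the fourth is CTTTGTT. Capitals also mark CACCTG on either strand, an E-box of Snail and Zeb factors.
Pcdh18 (chr3:49757317-49757566, minus strand): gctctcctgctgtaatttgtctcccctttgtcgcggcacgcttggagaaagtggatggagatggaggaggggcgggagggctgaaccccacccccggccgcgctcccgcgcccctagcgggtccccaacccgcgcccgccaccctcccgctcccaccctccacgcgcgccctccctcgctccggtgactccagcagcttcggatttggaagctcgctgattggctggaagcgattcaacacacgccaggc
Cdh8 (chr8:99416472-99416721, minus strand): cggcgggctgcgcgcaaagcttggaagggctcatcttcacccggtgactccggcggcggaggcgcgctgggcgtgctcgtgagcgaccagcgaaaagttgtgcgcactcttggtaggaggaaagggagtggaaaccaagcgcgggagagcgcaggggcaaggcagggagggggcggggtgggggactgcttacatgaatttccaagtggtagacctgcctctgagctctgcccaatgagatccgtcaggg
Pcdh7 (chr5:57717831-57718080, plus strand): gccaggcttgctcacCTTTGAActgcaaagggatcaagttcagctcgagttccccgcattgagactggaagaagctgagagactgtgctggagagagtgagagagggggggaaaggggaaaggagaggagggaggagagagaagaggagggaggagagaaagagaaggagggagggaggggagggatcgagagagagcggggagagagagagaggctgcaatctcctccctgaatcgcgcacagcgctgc
Epcam (chr17:87635729-87635978, plus strand): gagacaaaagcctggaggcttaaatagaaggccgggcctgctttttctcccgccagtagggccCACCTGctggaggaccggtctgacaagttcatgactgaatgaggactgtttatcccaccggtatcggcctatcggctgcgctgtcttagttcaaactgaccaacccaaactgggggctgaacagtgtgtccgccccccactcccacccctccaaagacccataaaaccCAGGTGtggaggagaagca
The Pcdh7 window held 1 TCF/LEF core, CTTTGAA, beginning 235 bases before the start. None was found in the windows of Pcdh18, Cdh8 or Epcam. Epcam held 2 E-boxes, beginning 187 and 19 bases before the start. Of 37 windows of the 30 genes, 6 held a TCF/LEF core and 6 an E-box, against 14.8% and 17.2% of all 32851 windows in the table. These matches describe letters in a short window and are not binding sites.

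Of the 68 genes, 26 were measured on both arrays, 5 on 1 array and 37 on neither. For all 18193 genes these counts were 11356, 1561 and 5276. Among the 26, Pcdh18, Cdh8 and Cdh13 were at least 2-fold higher with CHIR99021 and Fat2 was at least 2-fold lower, while 22 lay within 2-fold. Among all genes measured on both arrays 1.75% were that much higher and 17.3% that much lower. The median log2 ratio of the 26 was -0.33, against -0.40 for all such genes. Their ratios ran from -1.53 for Fat2 to 2.69 for Pcdh18. The split depends on the scaling: 6 were higher and 1 lower after median centring, and 6 and 0 after quantile or loess normalization, when Pcdh7, Cdh3 and Pcdhb20 passed 2-fold and Fat2, under the latter pair, did not. After loess 5.78% of all genes were higher and 6.95% lower.

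**Figure D1:**
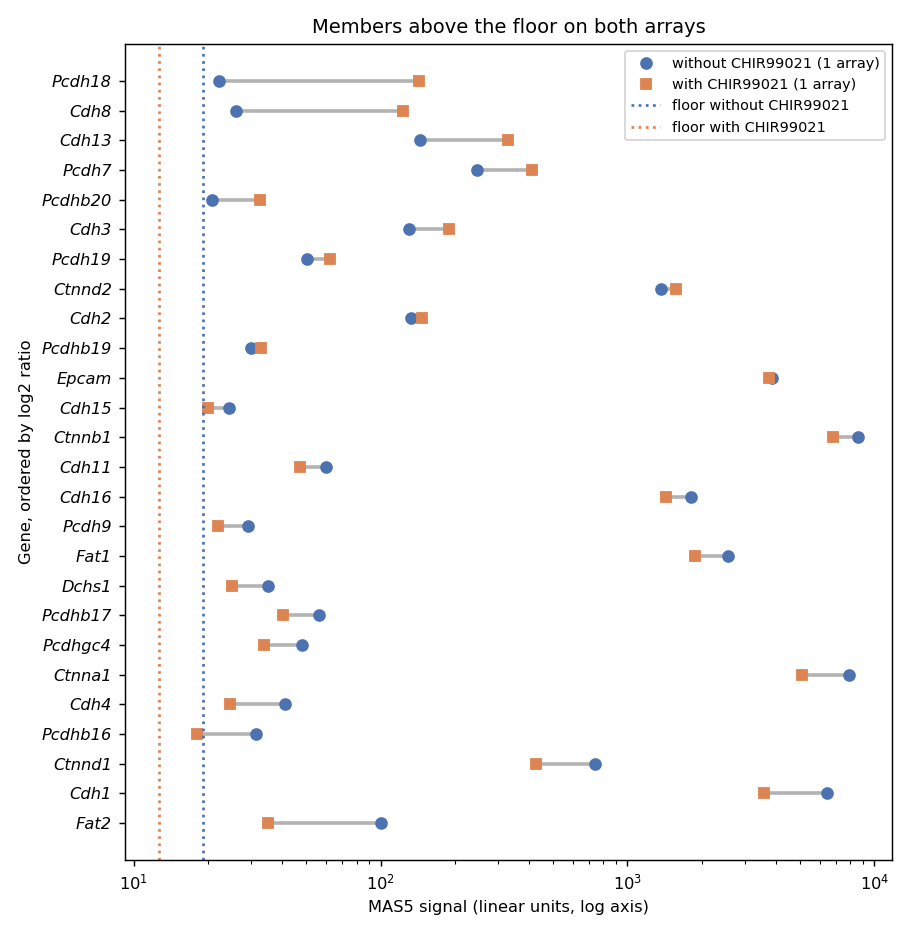
MAS5 signal (log axis) of the 26 members measured on both arrays, ordered by log2 ratio. Circles are the array without CHIR99021, squares the array with it, and dotted lines the floors at 19.2 and 12.7. Pcdh18, Cdh8 and Cdh13 at the top have their square to the right by over 2-fold, and Fat2 at the bottom has it to the left.

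**Figure D2:**
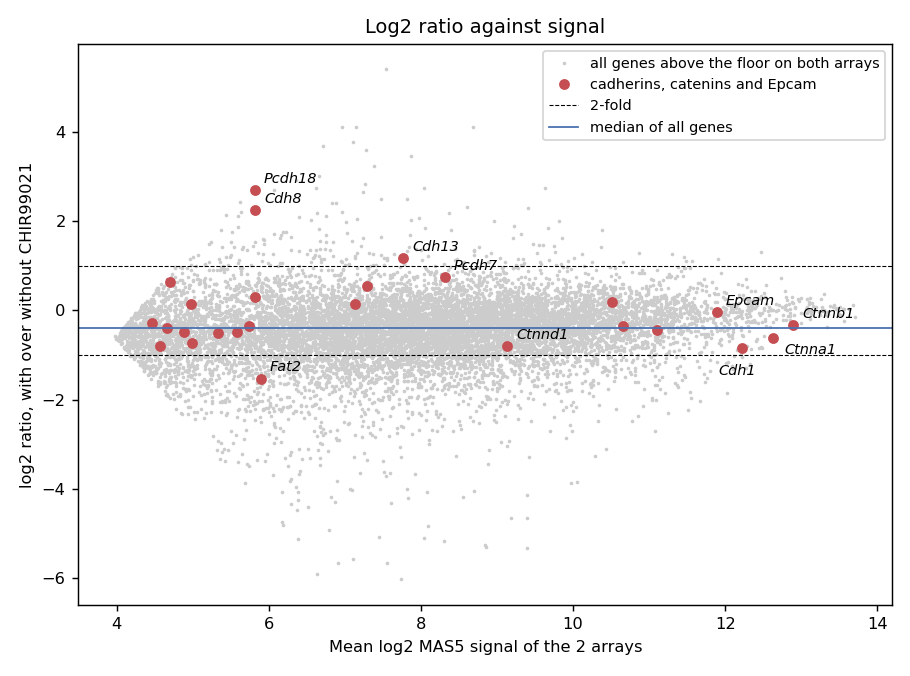
Log2 ratio, with over without CHIR99021, against the mean log2 signal of both arrays, for all 11356 genes measured on both arrays (grey) and the 26 members (red). The dashed lines mark 2-fold and the blue line the median of all genes at -0.40. Most members lie within the cloud, with Pcdh18 and Cdh8 above it.

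E-cadherin, the adhesion molecule of epithelial cells, did not reach the 2-fold threshold. Cdh1 stood at 6414 without CHIR99021 and at 3574 in its presence, a log2 ratio of -0.84, by its 1 probe set. That ratio lay below the median gene and stayed below 0 under each of the 4 other scalings, from -0.76 after loess to -0.37 after median centring. Of all genes measured on both arrays, 23.4% had a ratio as low or lower. Epcam, an adhesion glycoprotein outside the cadherin family, had 3846 without and 3743 with CHIR99021, a log2 ratio of -0.04 that turned to 0.08 after loess. Its second probe set had 401 and 302. The markers of the tissue were present: all 9 lung epithelial markers examined were above the floor without CHIR99021 and 8 with it, the exception being the lung factor Nkx2-1, at 52.0 and 5.84. Their summed signal was 35361 without and 20208 with CHIR99021, and the median log2 ratio of the 8 was -0.65. The brightest of them, the surfactant gene Sftpc, had 8808 and 8500, a log2 ratio of -0.05. Foxa1, Foxa2, Grhl2 and Esrp1 were also within 2-fold, with log2 ratios of -0.50, -0.49, -0.52 and -0.78. The keratin Krt19 stood at 4030 and 278, Krt8 at 7715 and 3151 and Krt18 at 6738 and 2834. All 3 were past 2-fold lower on the authors' scale and after loess, and Krt19 alone after median centring. No other of the 8 was past 2-fold under these scalings. Of all genes 17.3% were that much lower on the authors' scale, 6.95% after loess and 6.90% after median centring. The part of these differences in the values of Cdh1 and Epcam was not tested.

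P-cadherin (Cdh3), which is found with E-cadherin in many epithelia, had 130 without and 189 with CHIR99021. This log2 ratio of 0.54 was 1.07 after loess, but its second, dimmer probe set had 25.4 and 18.2 and a ratio of -0.48. N-cadherin (Cdh2), best known from nerve and mesenchyme, had 133 and 148 by its brighter probe set and 64.3 and 29.2 by the other, so its probe sets stood on opposite sides of 0. Cdh16, a cadherin first known from kidney tubules whose short tail does not bind catenins, had 1817 without and 1430 with CHIR99021. Its log2 ratio of -0.35 was close to that of the median gene. R-cadherin (Cdh4) had 41.1 and 24.6, with a second probe set at 33.7 and 29.2. Cdh11, a cadherin of mesenchyme, had 60.0 and 47.4, and M-cadherin (Cdh15), a cadherin of muscle, 24.3 and 20.1. By their brightest probe sets these genes were all within 2-fold, while the second probe set of Cdh2 was 2.20-fold lower.

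The largest differences among the cadherins were in Cdh8 and Cdh13. Cdh8, a type II cadherin best known from the nervous system, stood at 25.9 without CHIR99021 and at 123 in its presence, 4.76-fold higher. Its other probe sets were below the floor without CHIR99021 and above it with the inhibitor. One had 12.5 and 110, at least 5.75-fold higher, and the other 10.2 and 56.2, at least 2.93-fold higher. All 3 probe sets of Cdh8 were thus higher with CHIR99021, and 0.229% of all genes had a ratio as high as that of the brightest. With the floor at the 99th percentile of the receptor probe sets, 27.0 without CHIR99021, that signal of 25.9 is below the floor and the difference becomes at least 4.57-fold.

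Cdh13, or T-cadherin, is held in the membrane by a lipid anchor and has no tail to bind catenins. It had 145 without and 328 with CHIR99021, 2.26-fold higher, and its second probe set had 88.9 and 207, 2.33-fold higher. Both probe sets above the floor gave nearly the same ratio. Another, near the floor, had 18.9 and 15.4, and the last was below it on both arrays at 0.742 and 1.12, so that the median over all 4 gave a log2 ratio of 0.46. Of all genes, 1.19% had a ratio as high as the brightest probe set. The log2 ratio was 1.68 after loess.

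The other 12 Cdh genes gave no ratio. Cdh6 had 16.1 without and 16.4 with CHIR99021 and Cdh22 18.8 and 19.1, both above the lower floor of the array with CHIR99021 only. The remaining 10 were below the floor on both arrays. They include Cdh5, the cadherin of endothelium (16.8 and 8.83, with 5.23 and 5.75 by its other probe set), and Cdh17, of the intestine (1.19 and 0.669).

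The catenins had lower signals with CHIR99021 by several probe sets, but the size of the difference depended on the probe set. For beta-catenin the brightest probe set had 8552 without and 6810 with CHIR99021, a log2 ratio of -0.33. A second had 3776 and 996, 3.79-fold lower, and the third 883 and 63.1, 14.0-fold lower. The log2 ratios of Ctnnb1 thus ran from -3.81 to -0.33, while the SD of log2 ratios between probe sets of the same gene was 0.557 over the 5335 genes with 2 or more measured on both arrays. The brightest lay near the median gene and turned to 0.15 after median centring. With the median over its probe sets Ctnnb1 counted as lower, at a log2 ratio of -1.92.

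Control probe sets that read the 3′ and 5′ ends of the same transcript also differed between the arrays. The ratio of 3′ to 5′ signal was 1.29 without and 3.18 with CHIR99021 for beta-actin (Actb), 0.737 and 1.62 for Gapdh, and 11.7 and 3.32 for the transferrin receptor (Tfrc). Where the beta-catenin probe sets lie along the transcript was not used here, and the part of this difference in their ratios was not tested.

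Alpha-catenin, the link to actin, had 7873 without and 5117 with CHIR99021 by its brightest probe set, a log2 ratio of -0.62. Its second probe set had 5236 and 2528, 2.07-fold lower, and the third 191 and 108. Ctnna1 counted as lower when probe sets whose names end in _x_at or _s_at, which can match further sequences, were left out. All 3 measured probe sets were lower than the median gene. p120 catenin, which keeps cadherins at the membrane, had 741 and 425 by its brightest probe set, a log2 ratio of -0.80. The others had 268 and 75.2, 3.56-fold lower, and 58.1 and 36.5. Ctnnd1 counted as lower with the median over its probe sets and without the probe sets of those endings, at a log2 ratio of -1.83 in both cases.

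Delta-catenin (Ctnnd2), a relative of p120 catenin best known from neurons, was the exception among the catenins. Its signals were 1370 without and 1567 with CHIR99021. The other probe set gave 181 and 176. Its log2 ratios of 0.19 and -0.05 were both above the median gene. The alpha-catenins of nerve (Ctnna2) and of heart and testis (Ctnna3) were below the floor on both arrays. Counted by probe set, 4 of the 11 catenin probe sets measured on both arrays were at least 2-fold lower and 0 higher, where 22.5% of all 20543 such single-gene probe sets were lower and 1.41% higher. Of those 4, 2 belong to Ctnnb1, 1 to Ctnna1 and 1 to Ctnnd1, so they are not separate genes. By the brightest probe set 0 of the 4 catenin genes measured on both arrays were lower and 0 higher, beside 17.3% and 1.75% of all genes.

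**Figure D3:**
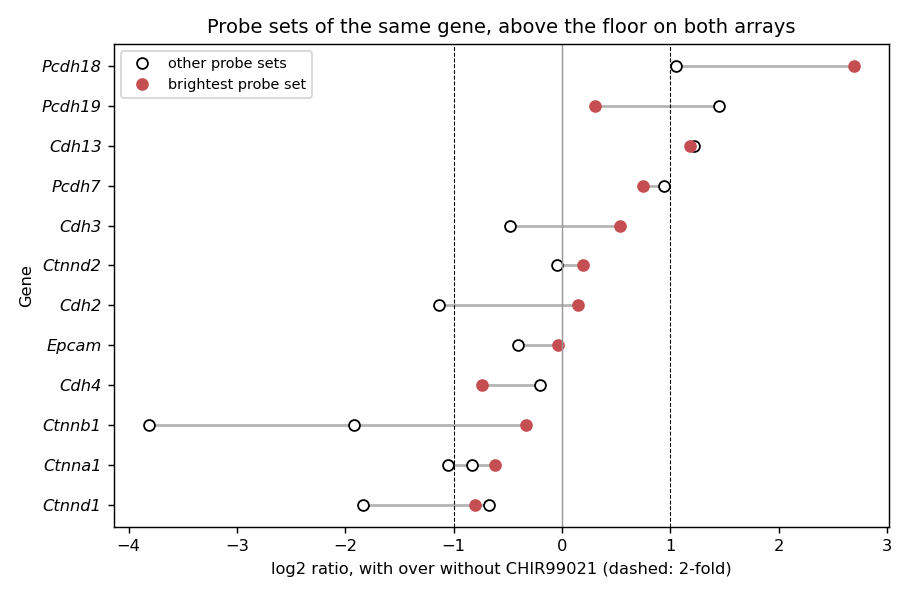
Log2 ratio of each probe set measured on both arrays, for the 12 members with 2 or more of them; the filled point is the brightest probe set, which represents the gene, and dashed lines mark 2-fold. Probe sets of Cdh13 and Pcdh7 lie close together, those of Ctnnb1 spread from -3.81 to -0.33, and those of Cdh2, Cdh3 and Ctnnd2 lie on both sides of 0.

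Of these 12 genes, 9 had probe sets that agreed in the sign of the ratio. The other 3 were Cdh2, Cdh3 and Ctnnd2.

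Fat2, a giant cadherin related to Fat1, was the member with the lowest ratio. It had 101 without and 34.9 with CHIR99021, 2.89-fold lower, by 1 probe set. Of all genes 6.31% had a ratio as low. The difference was under 2-fold after quantile normalization, with a log2 ratio of -0.85, and after loess, with -0.95. Fat1, a giant cadherin found in many epithelia, had 2545 and 1886, a log2 ratio of -0.43 close to the median gene. Dachsous (Dchs1), the binding partner of Fat4, had 34.9 and 25.0. Fat4 itself had 21.0 and 12.4 by one probe set and 8.71 and 23.7 by the other, each above the floor on 1 array only and in opposite directions, so no ratio is given. Fat3 was below the floor on both arrays, at 5.83 and 4.57.

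Pcdh18, a protocadherin outside the gene clusters, had the highest ratio of all members. Its signal was 22.1 without CHIR99021, just above the floor, and 143 with it, 6.45-fold higher. The second probe set had 19.5 and 40.6, 2.08-fold higher, and the third was below the floor on both arrays. Both informative probe sets were higher with CHIR99021, though by different amounts, and 0.150% of all genes had a ratio as high as the brighter. The second probe set, too, was only just above the floor without CHIR99021. With the floor at the 99th percentile, 27.0 without CHIR99021, both signals without the inhibitor are below it. The difference by the brighter becomes at least 5.29-fold, and that by the second a bound under 2.08-fold.

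Pcdh7, of the same delta group of protocadherins, had 245 without and 412 with CHIR99021, 1.68-fold, and 96.8 and 185 by its second probe set, 1.92-fold. Both are under the threshold on the authors' scale. The log2 ratio of 0.75 was 1.20 after loess, and 3.27% of all genes had a ratio as high. Pcdh19, a protocadherin of the X chromosome best known from brain, had 50.5 and 62.6 by its brightest probe set and 25.4 and 69.5, or 2.73-fold higher, by the second. The third had 18.2 and 17.5, above the floor with CHIR99021 only. With the median over its probe sets, taken on each array separately, Pcdh19 counted as higher, at a log2 ratio of 1.30. That value sets the 62.6 of the brightest probe set against the 25.4 of the second, so it is the ratio of no single probe set. Pcdh9 had 29.0 and 22.0, at the median gene. The other 8 non-clustered protocadherins, Pcdh10 with its 6 probe sets among them, were below the floor on both arrays, with representative signals of at most 10.3 without and 10.6 with CHIR99021.

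The clustered protocadherins, whose many isoforms give neurons their surface identity, were mostly below the floor. Of 23 genes, 22 of them of the beta cluster, 16 were below it on both arrays, 2 (Pcdhb5 and Pcdhb21) above it with CHIR99021 only and 5 on both. Among all 18193 genes 5276 were below it on both arrays. Pcdhb20 had 20.8 without and 32.4 with CHIR99021 and Pcdhb19 30.0 and 32.9. Pcdhb17 had 56.4 and 40.2, Pcdhb16 31.3 and 18.1, and Pcdhgc4, of the gamma cluster, 48.0 and 33.7. All 5 were within 2-fold on the authors' scale. Pcdhb20 reached a log2 ratio of 1.23 after loess, from 0.64, at signals near the floor. Genes of this cluster are near copies of each other, and probe sets of one can read others.

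**Figure D4:**
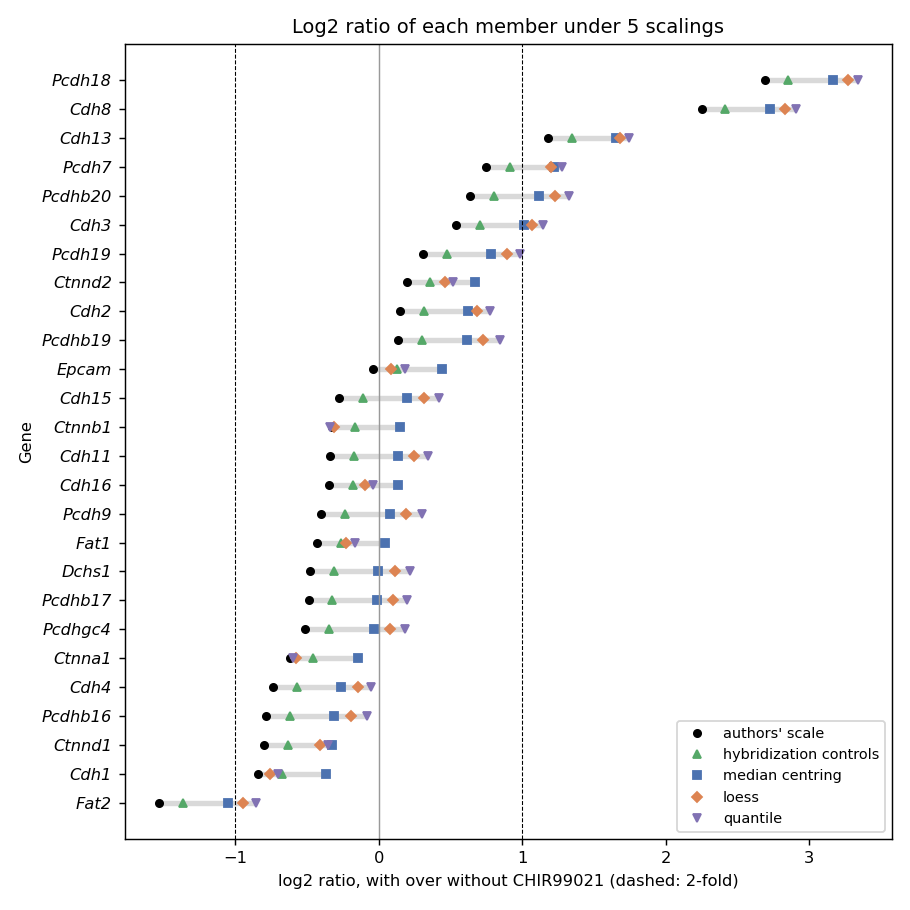
Log2 ratio, with over without CHIR99021, of each of the 26 members on the authors' scale (black circles) and under 4 other scalings; grey bars span the lowest and the highest, and dashed lines mark 2-fold. Pcdh18, Cdh8 and Cdh13 lie above 1 under all of them, and 10 members in the middle change sign.

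Across the authors' scale and the 4 others, 10 members had ratios above 0 throughout, among them Pcdh18, Cdh8, Cdh13, Pcdh7, Pcdh19 and Cdh3. A further 6 were below 0 throughout: Cdh1, Cdh4, Ctnna1, Ctnnd1, Fat2 and Pcdhb16. The remaining 10 changed sign with the scaling, Epcam, Ctnnb1, Fat1 and Cdh16 among them, so no direction is given for those.

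The further proteins of the adherens junction are the binding partners of cadherins and catenins, the nectins and the actin linkers. Of a list of 29, 28 had a single-gene probe set and all 28 were measured on both arrays. Of these 8 were at least 2-fold lower with CHIR99021 and 0 higher, beside 17.3% and 1.75% of all genes. After median centring 4 were lower and 0 higher, beside 6.90% of all genes lower. After loess or quantile normalization 5 were lower and 1 higher, the latter being Arvcf, a relative of p120 catenin, at 61.7 without and 85.1 with CHIR99021. Of all genes 6.95% were lower and 5.78% higher after loess, and 6.08% and 7.12% after quantile normalization. The median log2 ratio of the 28 partners on the authors' scale was -0.63, against -0.40 for all genes. Nectin4, an adhesion molecule that works beside cadherins, had 160 without and 35.7 with CHIR99021, 4.49-fold lower. Nectin3, of the same family, had 852 and 284, a log2 ratio of -1.59. Vinculin (Vcl), which binds alpha-catenin under tension, had 3231 and 1068, 3.03-fold lower, and Lima1, an actin-binding partner of alpha-catenin, 452 and 152, 2.97-fold lower. After loess these 4 had log2 ratios of -1.60, -1.18, -1.37 and -1.09. The calls also depend on the probe set. With the median over probe sets 10 of 26 partners were lower and 1 higher, beside 22.4% and 1.37% of all genes. Nectin4, Vcl and Lima1 were among the 10, and Nectin3 was not.

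Of 7 further genes linked to Fat and Dachsous cadherins 5 were measured on both arrays. After loess 0 were lower and 1 higher, beside 6.95% and 5.78% of all genes. On the authors' scale 1 was lower and 0 higher, beside 17.3% and 1.75% of all genes. The lower one was Wwc1, a Hippo pathway scaffold, with 1862 without and 794 with CHIR99021, 2.34-fold, and a log2 ratio of -0.94 after loess. Mpdz, a multi-PDZ scaffold, had 285 and 510, a log2 ratio of 0.84 that was 1.28 after loess, Frmd6 674 and 537, and Nf2, another Hippo regulator, 205 and 181. Of the partners of Epcam 5 of 6 had a single-gene probe set, and all 5 were measured on both arrays and within 2-fold. Cldn7, a claudin that binds Epcam, had 2495 and 1700, Spint1, a protease inhibitor, 1496 and 843, Spint2, its relative, 5288 and 4763, and Cd44, a hyaluronan receptor, 402 and 236.

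Transcription factors that repress the E-cadherin gene were mostly dim. Of 9 listed, 8 had a single-gene probe set and 3 were measured on both arrays. Snai2, Twist1, Twist2 and Zeb1 were below it on both, and Snai1 had 13.2 without and 13.7 with CHIR99021. Tcf3, an E-box factor with other roles in many tissues, had 553 and 837, within 2-fold on the authors' scale. Tcf3 was past 2-fold higher after median centring or quantile normalization, and had a log2 ratio of 0.97 after loess. Zeb2 had 44.5 and 14.8, the 1 of the list past 2-fold lower on the authors' scale, and Snai3 had 23.6 and 35.9. After loess Zeb2 was just under 2-fold and Snai3, at a log2 ratio of 1.20, was past it in the other direction. On the authors' scale 1 of the 3 was thus lower and 0 higher, beside 17.3% and 1.75% of all genes. After loess 0 were lower and 1 higher, beside 6.95% and 5.78%. After median centring 1 was lower and 2 higher, beside 6.90% and 5.80%. After quantile normalization 0 were lower and 2 higher, beside 6.08% and 7.12%.

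**Figure D5:**
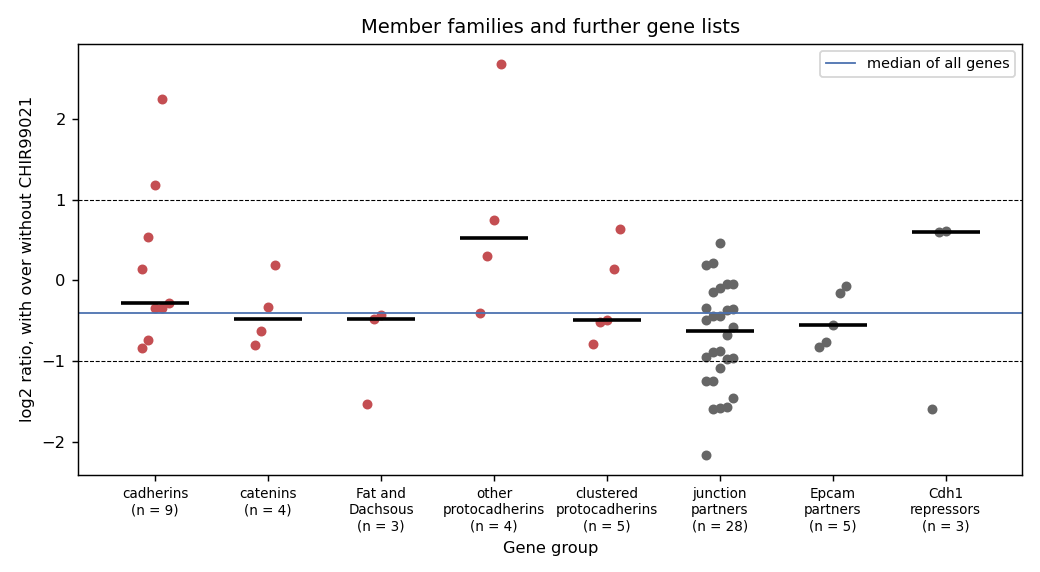
Log2 ratio, with over without CHIR99021, of the members by family (red, Epcam left out) and of genes on 3 further lists (grey), for genes measured on both arrays. Black bars are medians, the blue line is the median of all genes at -0.40 and dashed lines mark 2-fold. On this scale, the authors' own, junction partners have 8 of 28 points below -1 and 0 above 1, beside 17.3% and 1.75% of all genes. After loess 5 lie below -1 and 1 above 1, beside 6.95% and 5.78% of all genes.

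Several members are known from other cell types, whose markers were read on the same arrays. Of 12 mesenchyme markers 5 were above the floor without and 6 with CHIR99021, with summed signals of 476 and 415. Acta2 had 199 and 194, Col3a1 88.7 and 54.6, and Col1a1 24.7 and 35.8, a log2 ratio of 0.54 that was 1.13 after loess. Tbx5 had 9.35 and 20.8, above the floor with CHIR99021 only, and Pdgfra, Pdgfrb, Twist1 and Fgf10 were below it on both. Of 7 endothelial markers 3 and 3 were above it, with sums of 163 and 199. Esam, at 75.2 and 141, was 1.88-fold higher with CHIR99021 and had a log2 ratio of 1.47 after loess, Kdr had 32.0 and 23.5 and Cldn5 39.0 and 20.2, while Pecam1, Tek and Tie1 were below it on both. Of 3 neural markers 0 and 1 were above it, with sums of 29.2 and 33.3, Elavl4 being the 1 at 24.0, and Sox10 and Tubb3 were below it on both. Of 5 immune markers 3 and 3 were above it, with sums of 172 and 118. Lyz2 had 74.9 and 35.0, Csf1r 48.4 and 54.4 and Cd68 28.1 and 19.4, while Ptprc and Tyrobp were below it on both. All 5 erythroid markers were below it. Of 4 mesothelial markers 1 and 1 were above it, with Msln at 471 and 4.84 and Wt1 below it on both. The part of other cell types in the values of Pcdh18, Cdh8 and Cdh13 was not tested. In such bulk RNA, fewer cells of a type and less RNA per cell cannot be told apart.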

How the data were processed

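RNA of 2 cultures, 1 per condition, was read on Affymetrix arrays from 100 ng of total RNA, per the labels' protocols. The authors deposited 1 intensity per probe set, a linear MAS5 signal; the tool is named in the submitters' processing notes, with no scaling target. They ran from 0.0201 to 14129 without and from 0.0232 to 13693 with CHIR99021, with medians of 33.1 and 20.4, so they are not centred, and the scaling stays unknown. Detection calls were not used. Genes were named from the platform annotation: 34945 probe sets named 1 gene, 932 several, 9160 none here, and 64 were controls.

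The floor, the choice of 1 probe set per gene and the 2-fold threshold are as given above. Values below the floor were raised to it, and a ratio against a raised value is a bound. Alternatives were centring on the median probe set, quantile and loess (span 0.4) normalization, scaling on bacterial hybridization controls, floors at the 90th and 99th percentiles or none, the median over probe sets, leaving out probe sets ending in _x_at and _s_at, and thresholds of 1.5-fold and 3-fold. The median over probe sets was taken on each array separately, so it can combine different probe sets of a gene. Python 3.11.15, numpy 2.4.6, pandas 2.3.3, statsmodels 0.14.6 and matplotlib 3.10.9 were used, and the procedure was tested on simulated data. Precision is limited by 1 array per condition. The members and gene lists were chosen with earlier results of these data known. Members measured on both arrays are given with their values, others by counts and range or as examples, and up to 4 genes of each further list by the largest ratio among those at 4 times the floor; Snai1, Snai3, Zeb2 and the markers were named after their values were seen.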

Additional observations from a re-analysis of the deposited data

How the results depend on the processing

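With 1 array per condition no result has an error, and no paired analysis was possible because each condition has a single sample. The number of members at least 2-fold higher with CHIR99021, 3, became 6 after median centring, quantile normalization or loess (5.80%, 7.12% and 5.78% of all genes), 1 with the floor at the 99th percentile (1.67% of all genes, Cdh8 and Pcdh18 then being bounds), 10 of 68 without a floor, where 6.67% of all genes were higher, and 5 at 1.5-fold. It was 2 with the median over probe sets (1.37% of all genes), then Pcdh18 and Pcdh19, with Cdh13 under 2-fold and Cdh8 a bound. The ratio of Pcdh19 there combines different probe sets on the arrays, and its brightest probe set was within 2-fold. The number lower, 1, became 0 after quantile normalization or loess (6.08% and 6.95% of all genes) or at 3-fold, 3 with the median over probe sets (22.4% of all genes) or without probe sets ending in _x_at and _s_at (18.4% of all genes), 10 of 68 without a floor (25.3% of all genes) and 6 at 1.5-fold. The median log2 ratio of the members, -0.33, became 0.14 after median centring, 0.26 after quantile normalization, 0.15 after loess and -0.17 on the hybridization controls. The median of all genes, -0.40, moved as well, to 0.07, 0.12, 0.05 and -0.24 in the same order. The number of junction partners past 2-fold, 8, became 4 after median centring, 14 at 1.5-fold and 3 at 3-fold. It was 6 of 28 after loess or quantile normalization. On the hybridization controls it was 7 of 28, where 2.61% of all genes were higher and 12.8% lower. Without probe sets ending in _x_at and _s_at it was 9 of 27, and with the median over probe sets 11 of 26. After median centring 5.80% of all genes were higher and 6.90% lower. Shares of all genes at 1.5-fold and 3-fold were not counted. The counts of members and partners at those thresholds therefore cannot be set against the array as a whole. Of 234 single-gene values under the alternatives, 194 kept their sign and their side of 2-fold. The other 40 belong to 19 genes, and 0 of them turned the sign of a gene past 2-fold. Part of the 194 was fixed beforehand, so that count does not measure robustness. A lower floor or none could not change genes already above it. Leaving out probe sets by their endings could change only genes represented by such a probe set.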
